A study of Homo sapiens with 44 samples.

Results

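The genes described are 10 members of the semaphorin system, the secreted and membrane-bound semaphorins and their plexin and neuropilin receptors: SEMA3A, SEMA3B, SEMA3C, SEMA4B, SEMA4D, SEMA7A, PLXNA1, PLXNB2, NRP1 and NRP2. They were taken by gene symbol from 2 deposited RNA-seq tables, where they are 10 of 18797 genes in the GAS41 experiment and 10 of 21159 genes in the doxorubicin experiment. SEMA3A and SEMA3B were chosen for large rises in these data, so their levels are a description and no p-value is given. The mut rescue libraries may be among those in which the rises were seen. The other 8 members were chosen by family and not for their values, but with earlier results of these data known. They are a part of a family list of 31 genes.

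RNA was measured in 18 libraries of HCT116, a human colon carcinoma line, here with both p53 alleles intact. The study asked how GAS41, the histone reader encoded by YEATS4, takes part in transcriptional repression. In the GAS41 experiment there were 4 groups of 3 libraries. The mut rescue group was GAS41-KO cells stably carrying GFP-Flag-GAS41 with the substitutions Y74A and W93A, and the wt rescue group was GAS41-KO cells stably carrying the unmutated GFP-Flag-GAS41. GAS41-KO cells had neither construct, and WT cells were unedited, so all groups but WT share the knockout background. In the doxorubicin experiment there were 2 groups of 3 libraries, cells given 500 nM doxorubicin (Dox), a topoisomerase poison that breaks DNA, and cells given the solvent DMSO. The treatment time, the number of knockout clones and the promoter of the rescue constructs are not given in the sources used here.

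Semaphorins were first known as axon guidance cues and also act on epithelial, endothelial and immune cells. Secreted class 3 semaphorins mostly bind a neuropilin, which has a short cytoplasmic tail and passes the signal through an A-type plexin, whereas membrane-bound class 4 semaphorins bind B-type plexins directly. Plexins carry a GTPase-activating domain that acts on small GTPases of the Ras family, and so change adhesion and the actin cytoskeleton. Neuropilins are also coreceptors for vascular endothelial growth factors. In colon epithelium and carcinoma, these genes are studied in migration, in the growth of vessels and in immune cell contact.

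The 12 GAS41 libraries held 16857982 to 18546135 reads each, and the 6 doxorubicin libraries 17442035 to 18894312. Levels are given as normalized reads, the reads of a gene divided by the size factor of the library, and folds are ratios of group means of these. Log2 changes are differences of the deposited values, a scale on which changes of genes with few reads come out smaller than their folds, and a gene was called at an adjusted p under 0.05 with limma over all tested genes. Because gene lengths are not in the tables, levels are compared between groups and not between genes. YEATS4 had 2358 to 2551 normalized reads in mut rescue, 2887 to 3500 in wt rescue, 325 to 386 in GAS41-KO and 608 to 625 in WT, so RNA of the targeted gene fell in the knockout (log2 change -0.64, limma adjusted p = 2.09e-06) and was still present there. Replicate libraries of wt rescue stood apart most: replicate 1 differed from replicates 2 and 3 by a chi-square per gene of 27.2 and 17.6, against 3.32 between those 2. The value was also high between DMSO replicates 1 and 3 (20.15) and between mut rescue replicates 2 and 3 (16.88). Pairs within GAS41-KO and within WT reached at most 2.87. Keratins KRT8, KRT18 and KRT19 were high in every library and made up most of the summed colon epithelial markers, which held 56788 or more normalized reads, while the gut marker VIL1 had at most 1.01 normalized reads in any GAS41 or DMSO library and 39.7 to 54.3 with Dox. EPCAM was lower in mut rescue (1511 to 1834) and GAS41-KO (898 to 932) than in wt rescue (8126 to 9608) and WT (7187 to 7876). The epithelial cadherin CDH1 was likewise lower in mut rescue (155 to 179) and GAS41-KO (128 to 155) than in wt rescue (1237 to 1438) and WT (1402 to 1436). Neuronal markers (4 of 4 listed) summed to 414 to 512 in mut rescue, 185 to 211 in wt rescue, 598 to 655 in GAS41-KO and 230 to 244 in WT, mostly MAP2 and, in GAS41-KO, SNAP25. Fibroblast markers (3 of 6 listed) summed to 262 to 335 in mut rescue, 161 to 179 in wt rescue, 240 to 311 in GAS41-KO and 270 to 308 in WT, mostly COL1A1. The part of these genes in the results below was not tested. Endothelial markers summed to at most 36.5 and blood markers to at most 10.9 normalized reads in any library. Whether the replicates were separate cultures is not said, and without that the p-values cover no more than the spread among these libraries.

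SEMA3A, SEMA3B and SEMA3C, secreted class 3 ligands, were 6.54-fold, 7.62-fold and 3.39-fold higher in mut rescue than in wt rescue. Of these, SEMA3C is the one not chosen for its rise, and it was called. The other tested class 3 genes did not all follow: SEMA3D rose (38.0 normalized reads in mut rescue, 9.49 in wt rescue, limma adjusted p = 5.74e-05) and SEMA3G rose 1.39-fold (adjusted p = 0.00854), whereas SEMA3E (adjusted p = 0.147) and SEMA3F (1.1-fold, adjusted p = 0.365) were not called. SEMA7A and NRP1 fell in the same comparison, and SEMA4D, PLXNA1 and NRP2 were not called. Of the 8 members not chosen for their values, 3 rose and 2 fell, 5 of 8 called in all, against a background of 61.1% of 14505 tested genes called, 29.8% higher and 31.3% lower. The share of members called is therefore near the background. The median log2 change was -0.04 over the 8 members and 0.0 over all tested genes. Of all 10 members, 7 had groups that did not overlap, against 57.9% of tested genes. That count includes SEMA3A and SEMA3B, chosen for large rises, so it is not an unselected match for that share.

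SEMA3A, a repellent ligand that signals through NRP1 and A-type plexins, had 4058, 3485 and 4334 normalized reads in the mut rescue libraries, against 842, 473 and 503 in the wt rescue libraries. Every mut rescue library was more than 4 times as high as any wt rescue library. The log2 change was 2.48 (SE 0.13). It was 2.69 without wt rescue replicate 1, the highest of its group, and 2.05 against that replicate alone. GAS41-KO libraries had 6189, 5709 and 5713 normalized reads and WT libraries 335, 334 and 353, a ratio of 17.2 with no overlap. In order, the group means of SEMA3A were highest in GAS41-KO, followed by mut rescue, wt rescue and WT, and no neighbours in that order overlapped. Mut rescue was thus 1.48-fold lower than GAS41-KO, and wt rescue (606 ± 205, SD, n = 3) was 1.78-fold higher than WT (341 ± 10.5, SD, n = 3). For SEMA3A this difference of 0.6 on the log2 scale, with no test, was 0.39 without wt rescue replicate 1. In bulk RNA, a change in each cell and a change in the share of cells that carry the RNA cannot be told apart.

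SEMA3B, a secreted semaphorin known as a tumour suppressor and a p53-induced gene, had 463, 536 and 454 normalized reads in mut rescue, against 59.8, 61.5 and 69.2 in wt rescue. Its mut rescue and wt rescue libraries were far apart and tight within each group. The log2 change was 1.75 (SE 0.07), between 1.69 and 1.79 when any 1 library was left out. In GAS41-KO it had 544, 580 and 517 normalized reads, against 102, 120 and 122 in WT, a ratio of 4.76. The order of SEMA3B was GAS41-KO, mut rescue, WT and wt rescue, in which the libraries of GAS41-KO and mut rescue overlapped and the others did not. Unlike SEMA3A, it lay lower in wt rescue than in WT (63.5 ± 4.99 against 115 ± 11, SD, n = 3 each), a ratio of 0.553.

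SEMA3C, a class 3 ligand studied in cell growth and migration, had 702, 646 and 797 normalized reads in mut rescue, against 292, 154 and 187 in wt rescue. It rose by 1.32 on the log2 scale (SE 0.11, limma adjusted p = 1.17e-07), and by 1.49 without wt rescue replicate 1. GAS41-KO libraries had 447, 347 and 391 normalized reads, against 275, 276 and 290 in WT, so the mut rescue level lay above that of the knockout cells that received no construct. SEMA3C was higher in mut rescue than in GAS41-KO (log2 change 0.68, limma adjusted p = 0.000791). It was also higher in GAS41-KO than in WT (0.35, limma adjusted p = 0.0169), a call lost without GAS41-KO replicate 1 (adjusted p = 0.0837). It fell in wt rescue against GAS41-KO (log2 change -0.65, limma adjusted p = 0.000126).

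**Figure D1:**
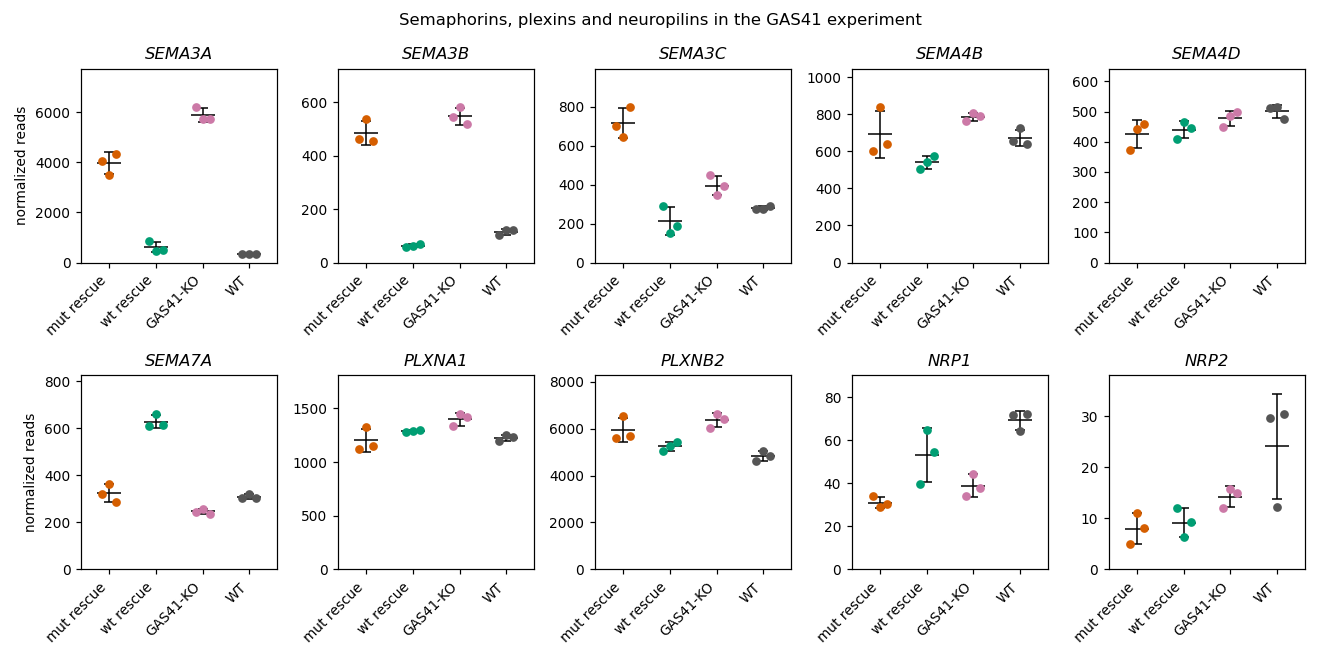
Normalized reads of the 10 genes in the GAS41 experiment, a panel per gene with its own linear axis from 0. Points are libraries and black lines the mean ± SD of 3 libraries in mut rescue, wt rescue, GAS41-KO and WT. SEMA3A lies between 3485 and 6189 in mut rescue and GAS41-KO and between 334 and 842 in wt rescue and WT, while SEMA7A is highest in wt rescue (610 to 660).

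SEMA7A, a semaphorin held to the membrane by a lipid anchor that binds integrins and PLXNC1, ran the other way. It had 322, 364 and 286 normalized reads in mut rescue, against 610, 660 and 614 in wt rescue. The fall was 0.74 on the log2 scale, a 1.94-fold lower mean, with no overlap (log2 change -0.74, SE 0.06, limma adjusted p = 1.43e-07). GAS41-KO had 246, 257 and 237 normalized reads and WT 305, 322 and 302, a smaller fall that was also called (log2 change -0.22, limma adjusted p = 0.00846). Wt rescue thus held more SEMA7A RNA than either GAS41-KO (2.54-fold, limma adjusted p = 2.33e-09) or WT (2.03-fold, limma adjusted p = 5.81e-07). Mut rescue was 1.31-fold above GAS41-KO (limma adjusted p = 0.011, and 0.0572 without GAS41-KO replicate 3).

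The class 4 members SEMA4B and SEMA4D moved little. SEMA4B, a membrane-bound ligand, had 603, 838 and 638 normalized reads in mut rescue, against 504, 544 and 576 in wt rescue. It rose 1.28-fold (log2 change 0.28, SE 0.09, limma adjusted p = 0.0103), with mut rescue replicate 2 well above the other two. In GAS41-KO it had 762, 807 and 790 normalized reads, against 658, 724 and 638 in WT. These groups did not overlap, yet the log2 change of 0.19 was not called (limma adjusted p = 0.0791). It was lower in wt rescue than in GAS41-KO (log2 change -0.44, limma adjusted p = 0.00029).

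SEMA4D, the ligand of PLXNB1 and PLXNB2 also called CD100, had 373, 443 and 460 normalized reads in mut rescue, against 410, 464 and 446 in wt rescue. The libraries of both groups were interleaved, and the 95% interval of the log2 change ran from -0.18 to 0.10. GAS41-KO had 450, 485 and 499 normalized reads and WT 513, 514 and 476, with an interval from -0.20 to 0.09. It was lower in mut rescue than in WT (log2 change -0.19, limma adjusted p = 0.0349), a call lost without mut rescue replicate 1, WT replicate 1 or WT replicate 2 (adjusted p up to 0.19).

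Among the plexins, PLXNB2, a receptor of class 4 semaphorins that is widely expressed in epithelia, rose in the knockout. It had 6038, 6612 and 6412 normalized reads in GAS41-KO, against 4627, 5057 and 4841 in WT, with no overlap (1.31-fold, log2 change 0.38, SE 0.07, limma adjusted p = 0.000187). Mut rescue libraries had 5587, 6517 and 5689 and wt rescue libraries 5048, 5278 and 5409. The groups did not overlap, and the log2 change of 0.17 was called at an adjusted p of 0.0401 in limma. That call was lost without mut rescue replicate 2 or any of the 3 wt rescue replicates (adjusted p up to 0.163). The level was lower in wt rescue than in GAS41-KO (log2 change -0.27, limma adjusted p = 0.00244).

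PLXNA1, the signalling partner of NRP1 for SEMA3A, had 1125, 1328 and 1149 normalized reads in mut rescue, against 1279, 1291 and 1295 in wt rescue. The mut rescue libraries lay on both sides of the wt rescue libraries, and no call was made (log2 change -0.09, limma adjusted p = 0.208). Without mut rescue replicate 2 the change was -0.16 and called (adjusted p = 0.0194). GAS41-KO had 1332, 1445 and 1418 normalized reads and WT 1196, 1250 and 1229. The 1.14-fold rise was called (limma adjusted p = 0.0326) but not when any library other than GAS41-KO replicate 1 was left out (adjusted p up to 0.116). Mut rescue was lower than GAS41-KO (log2 change -0.20, limma adjusted p = 0.044), a call lost when any of the 6 libraries except mut rescue replicate 2 was left out (adjusted p up to 0.18).

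NRP1, the main neuropilin for SEMA3A, was a gene of few reads. It had 33.9, 28.9 and 30.2 normalized reads in mut rescue, against 39.8, 64.7 and 54.7 in wt rescue. It fell in mut rescue to a level 1.71-fold lower (log2 change -0.26, SE 0.07, limma adjusted p = 0.00313), and with wt rescue replicate 1 as the only library of its group the change was -0.12 and not called. GAS41-KO had 33.9, 44.5 and 38.0 normalized reads and WT 71.6, 64.2 and 72.1. These groups were well apart, and the fall was 1.78-fold (log2 change -0.32, limma adjusted p = 0.000736). NRP1 was thus lower in both groups in which SEMA3A was high. Wt rescue was 1.37-fold above GAS41-KO at a limma adjusted p of 0.047, with overlapping libraries, and the call was lost without wt rescue replicate 2 or 3 or GAS41-KO replicate 1 or 3 (adjusted p up to 0.232).

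NRP2, a neuropilin that binds SEMA3C and SEMA3F, was near the lower limit of measurement. Mut rescue libraries had 4.99, 11 and 8.05 normalized reads, wt rescue 12, 6.26 and 9.29, GAS41-KO 12, 15.8 and 15 and WT 29.6, 12.3 and 30.4. At least 10 reads were found in 8 of the 12 libraries. Neither mut rescue against wt rescue (limma adjusted p = 0.728) nor GAS41-KO against WT (limma adjusted p = 0.0919) was called. GAS41-KO and WT overlapped through WT replicate 2. Without WT replicate 2 the fall in GAS41-KO was called (log2 change -0.27, limma adjusted p = 0.00476). NRP2 was called lower than WT in mut rescue (log2 change -0.32, limma adjusted p = 0.00325) and in wt rescue (log2 change -0.29, limma adjusted p = 0.00699).

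In counts over the 8 members not chosen for their values, GAS41-KO against WT had 3 higher and 2 lower. Of the tested genes 52.6% were called, 26.0% as higher and 26.6% as lower. Of the 10 members, 8 had GAS41-KO and WT libraries that did not overlap, against 69.0% of tested genes. Wt rescue against GAS41-KO had 2 higher and 3 lower, with 66.0% of tested genes as background, 33.0% in each direction. For 8 of the 10 members these groups did not overlap, against 68.8% of tested genes. Mut rescue against GAS41-KO had 2 higher (SEMA3C and SEMA7A) and 1 lower (PLXNA1), where 14.9% were called, 5.92% higher and 9.0% lower. Here 6 of the 10 did not overlap, against 33.7% of tested genes. Wt rescue against WT had 1 higher (SEMA7A) and 3 lower (SEMA3C, SEMA4B and NRP2), with 50.1% as background, 27.4% higher and 22.7% lower, and 7 of the 10 did not overlap, against 57.3%. Without WT replicate 2 that count was 2 members in all, since SEMA3C (also lost without any library but wt rescue replicate 1, adjusted p up to 0.223) and SEMA4B (adjusted p = 0.0923) were not called. Mut rescue against WT had 2 higher (SEMA3C and PLXNB2) and 3 lower (SEMA4D, NRP1 and NRP2), with 46.3% as background, 23.5% higher and 22.9% lower, and 7 of the 10 did not overlap, against 56.0%. All these comparisons share libraries with each other, so their counts are not separate pieces of evidence. The overlap counts over 10 members include SEMA3A and SEMA3B, chosen for large rises. They are therefore not an unselected match for the shares of tested genes.

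**Figure D2:**
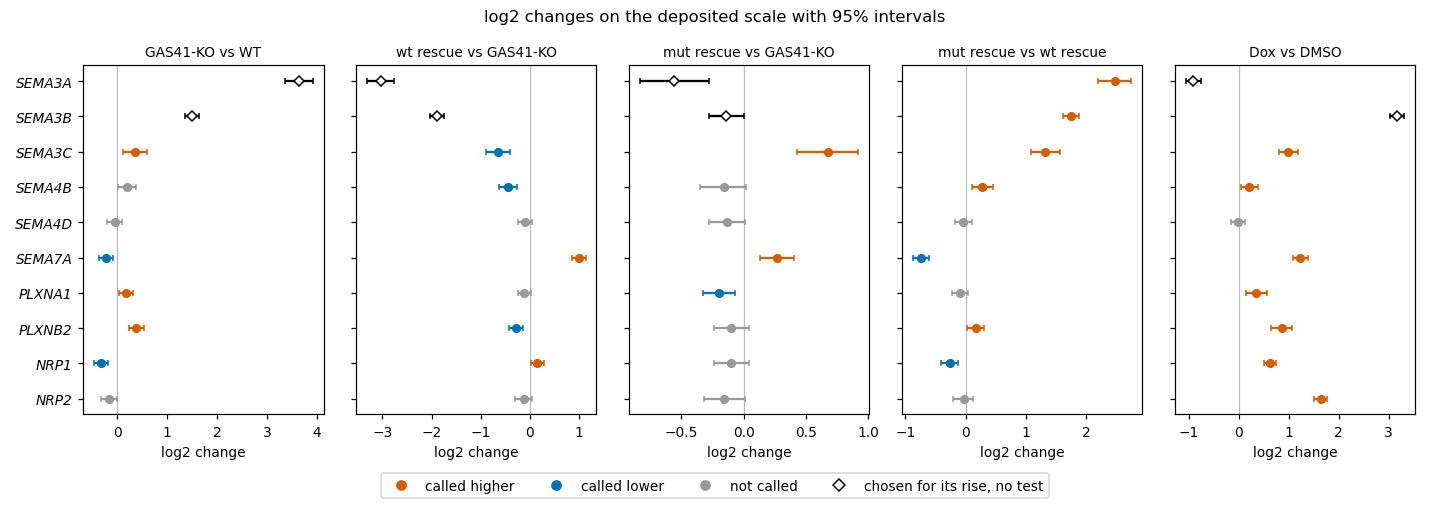
Log2 change on the deposited scale with its 95% interval for each gene in 5 comparisons, each panel with its own axis. Filled points are called higher, called lower or not called with limma, and open diamonds are SEMA3A and SEMA3B where no test was made. Their filled points in mut rescue over wt rescue are also only a description, since both genes were chosen for large rises. In mut rescue over wt rescue SEMA3A, SEMA3B and SEMA3C lie at 2.48, 1.75 and 1.32 and SEMA7A at -0.74, and with Dox all 8 tested genes but SEMA4D (-0.02) lie above 0 and are called.

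Most of these genes rose with doxorubicin. Of the 8 members not chosen for their values, 7 rose, none fell and SEMA4D was not called. The background was 65.7% of 14195 tested genes called, 32.3% higher and 33.4% lower. The median log2 change was 0.74 over the 8 members and -0.01 over all tested genes. Over the 16 other tested family genes it was 0.06, with 7 higher and 4 lower. The rise of the 8 members therefore does not stand for the whole family. Of the 10 members, 8 had Dox and DMSO libraries that did not overlap, against 69.1% of tested genes. This overlap count, too, includes SEMA3A and SEMA3B, so it is not an unselected match for that share. NRP2, NRP1, SEMA7A and SEMA3C were the members with the largest tested folds.

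SEMA3B had 2195, 2277 and 2400 normalized reads in Dox libraries, against 95.6, 120 and 109 in DMSO libraries, a ratio of 21.2. SEMA3A had 122, 129 and 133 normalized reads with Dox, against 335, 375 and 427 with DMSO, a level 2.95-fold lower. The Dox and DMSO libraries of both genes were fully apart, in opposite directions. SEMA3C had 739, 623 and 797 normalized reads with Dox, against 243, 260 and 325 with DMSO. It rose 2.61-fold (log2 change 0.99, SE 0.09, limma adjusted p = 4.83e-07), and every Dox library exceeded every DMSO library.

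SEMA7A had 1030, 962 and 1062 normalized reads with Dox, against 365, 305 and 322 with DMSO. It rose 3.08-fold with a wide gap between the groups (log2 change 1.23, SE 0.07, limma adjusted p = 5.94e-09). SEMA4B had 966, 990 and 1032 normalized reads with Dox, against 935, 843 and 737 with DMSO. Its 1.19-fold rise was called (limma adjusted p = 0.0276), but remained so only without DMSO replicate 1 and was lost when any other single library was left out (adjusted p up to 0.103). SEMA4D had 452, 446 and 479 normalized reads with Dox, against 487, 484 and 436 with DMSO, with overlapping libraries and a 95% interval of the log2 change from -0.16 to 0.12.

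Both neuropilins rose with Dox. NRP2 had 346, 336 and 370 normalized reads with Dox, against 28.5, 28.8 and 23.3 with DMSO. Its mean was 13.1-fold higher (log2 change 1.64, SE 0.06, limma adjusted p = 9.1e-11), and on a scale of reads without this compression the log2 change was 3.69. NRP1 had 114, 107 and 117 normalized reads with Dox, against 41.7, 30.8 and 31.0 with DMSO. The rise was 3.26-fold (log2 change 0.62, SE 0.06, limma adjusted p = 7.7e-07), with all 3 Dox libraries more than 2.5 times as high as any DMSO library.

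Both plexins rose as well. PLXNB2 had 10180, 9169 and 10480 normalized reads with Dox, against 6309, 5158 and 4816 with DMSO. It rose 1.83-fold with no overlap (log2 change 0.86, SE 0.10, limma adjusted p = 5.02e-06). PLXNA1 had 1616, 1303 and 1643 normalized reads with Dox, against 1306, 1069 and 1064 with DMSO. Dox replicate 2 lay just under DMSO replicate 1, so the groups overlapped, and the 1.33-fold rise was called (log2 change 0.35, SE 0.09, limma adjusted p = 0.00472) and remained called whichever single library was left out (adjusted p up to 0.0327).

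**Figure D3:**
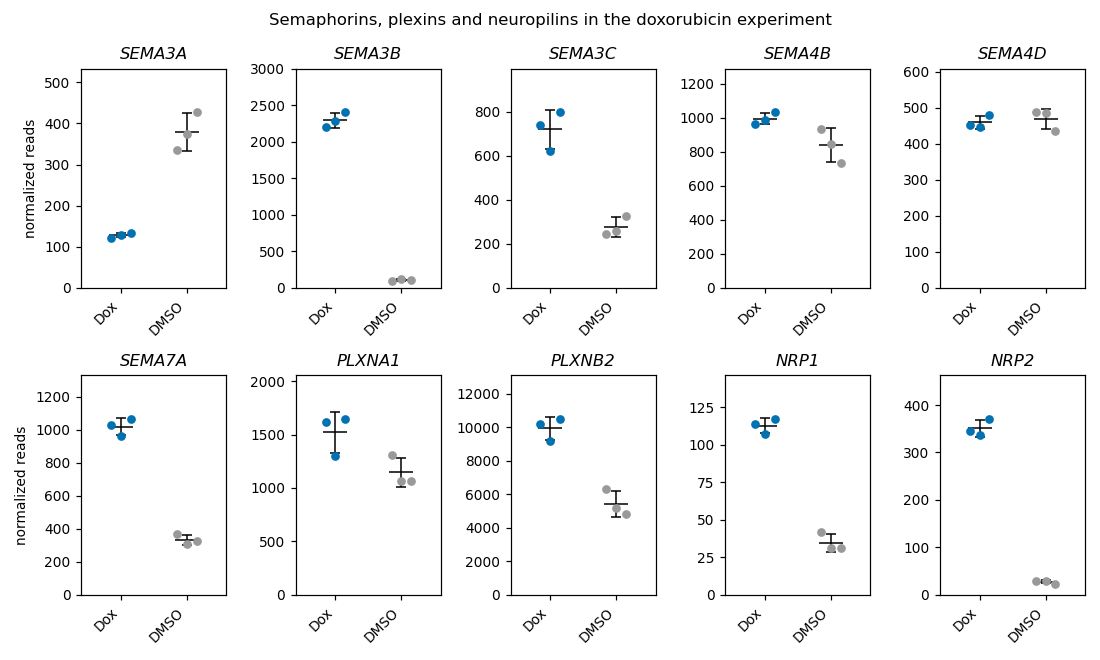
Normalized reads of the 10 genes with Dox and with DMSO, a panel per gene with its own linear axis from 0. Points are libraries and black lines the mean ± SD of 3 libraries. NRP2 lies between 336 and 370 with Dox and between 23.3 and 28.8 with DMSO, and SEMA4D overlaps between both groups (446 to 479 with Dox, 436 to 487 with DMSO).

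YEATS4 itself fell with Dox, to 173, 193 and 188 normalized reads, against 694, 612 and 698 with DMSO (log2 change -1.25, limma adjusted p = 3.58e-09). Set side by side, SEMA3B was higher, and SEMA3C, PLXNB2 and PLXNA1 were called higher, both in GAS41-KO and with Dox. In GAS41-KO the call of SEMA3C was lost without GAS41-KO replicate 1. That of PLXNA1 was kept in only 1 of 6 fits with a library left out. SEMA3A was 17.2-fold higher in GAS41-KO and 2.95-fold lower with Dox. SEMA7A and NRP1 fell in GAS41-KO and rose with Dox. The tables were normalized separately, and the difference between both effects was not tested. Among other cell markers, the endothelial sum reached 35.6 to 36.5 normalized reads with Dox and 8.13 to 22.3 with DMSO. The 2 endothelial markers that passed the read filter, PECAM1 and VWF, did so through the Dox libraries. That both were called higher was therefore largely set by the filter. Neuronal markers summed to 331 to 415 with Dox and 206 to 298 with DMSO. Colon epithelial markers summed to 145918 to 165100 with Dox and 72241 to 87962 with DMSO. Of 7 tested, 6 rose and EPCAM fell, against a background of 32.3% higher and 33.4% lower. Of these 6 markers, VIL1 passed the filter only through the Dox libraries. Their part in these results was not tested.

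The sequence before the start is shown for 3 of the members with a single listed start. PLXNA1, which rose 1.33-fold with Dox, also has a single listed start and is not shown. The 250 bases upstream of the start were read from RefSeq promoters of GRCh38.p14, in which 8 of the 10 genes were matched. NRP2 is the tested member with the largest rise, PLXNB2 is the plexin with the larger rise, and SEMA4D is the tested member that was not called. Each is written 5′ to 3′ on the strand of its gene, with GC boxes (GGGCGG) and E-boxes (CACGTG) on either strand in capitals. NRP2 lies at chr2:205682251-205682500 on the plus strand, PLXNB2 at chr22:50301670-50301919 on the minus strand and SEMA4D at chr9:89495657-89495906 on the minus strand.
NRP2: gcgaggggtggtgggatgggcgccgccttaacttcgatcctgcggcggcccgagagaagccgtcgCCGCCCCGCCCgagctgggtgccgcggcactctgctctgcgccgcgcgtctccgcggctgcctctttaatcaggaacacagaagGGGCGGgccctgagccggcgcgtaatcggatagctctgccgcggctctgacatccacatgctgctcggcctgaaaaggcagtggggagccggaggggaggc
PLXNB2: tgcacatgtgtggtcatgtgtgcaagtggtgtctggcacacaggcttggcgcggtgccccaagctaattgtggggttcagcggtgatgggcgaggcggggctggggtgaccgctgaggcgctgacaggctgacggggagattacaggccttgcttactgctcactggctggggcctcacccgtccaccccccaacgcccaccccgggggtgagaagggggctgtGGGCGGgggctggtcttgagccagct
SEMA4D: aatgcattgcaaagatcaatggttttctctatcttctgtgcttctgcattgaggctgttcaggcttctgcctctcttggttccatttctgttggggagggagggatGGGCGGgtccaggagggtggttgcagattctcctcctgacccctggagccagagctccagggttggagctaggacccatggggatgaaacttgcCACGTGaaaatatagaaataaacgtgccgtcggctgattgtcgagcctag
The NRP2 window held 3 GC boxes, of which the 2 farthest from the start overlap by 1 base, PLXNB2 held 1, and SEMA4D held 1 GC box and 1 E-box. Over 35116 promoter windows of this length, 42.6% held a GC box and 6.34% an E-box. The GC content was 70.0% for NRP2, 66.4% for PLXNB2 and 52.4% for SEMA4D, against a median of 58.0%. The PLXNA1 window also held GC boxes and had a GC content of 84.4%, beside a smaller rise than NRP2 and PLXNB2. A part of these letters in the changes with Dox was not tested. The TATA box (TATAAA, in 10.7% of windows) and the p53 half-site (in 5.57%), both also searched on either strand, were not found in any listed window of the 8 genes, and the CCAAT box (CCAAT, in 32.0%) was found in a window of SEMA3B and one of SEMA4B. Other members have up to 5 listed starts, and which start HCT116 cells use was not measured. A match is a description of letters and not a binding site.

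Beyond the 10 genes, the family list holds 21 other semaphorins and plexins, of which 16 passed the read filter in each table; the 5 that did not are SEMA4A, SEMA5A, SEMA5B, SEMA6D and PLXNA4. In GAS41-KO against WT, 12 of these 16 rose and 1 fell, against a background of 26.0% higher and 26.6% lower, with a median log2 change of 0.28, beside -0.01 over all tested genes. The named genes are SEMA6B (1.58-fold, limma adjusted p = 3.38e-05), PLXNA3 (1.54-fold, adjusted p = 1.66e-05), PLXNB1 (1.59-fold, adjusted p = 3.75e-05), PLXND1 (1.45-fold, adjusted p = 1.9e-05) and SEMA6A (1.54-fold, adjusted p = 6.67e-05). PLXNA3 is a partner of neuropilins for class 3 ligands, PLXNB1 the receptor of SEMA4D and PLXND1 the receptor of SEMA3E. In mut rescue against wt rescue 7 of the 16 rose and none fell (9 not called), against 29.8% higher and 31.3% lower, with PLXNA3 at 1.68-fold (limma adjusted p = 3.11e-06) and SEMA6A at 1.94-fold (adjusted p = 1.44e-06). In wt rescue against GAS41-KO 14 of the 16 fell (background 33.0%), with a median of -0.48, and in mut rescue against GAS41-KO 10 fell (background 9.0%), with a median of -0.23.

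With Dox, 7 of the 16 other family genes rose and 4 fell, against a background of 32.3% higher and 33.4% lower, with a median log2 change of 0.06. PLXNB3 had 561 normalized reads with Dox and 37.1 with DMSO, a 15.1-fold rise (limma adjusted p = 3.17e-11). SEMA3F, a class 3 ligand of NRP2, rose 4.26-fold (adjusted p = 1.19e-09), SEMA3G 6.19-fold (adjusted p = 1.19e-09), PLXNB1 3.29-fold (adjusted p = 2.29e-09) and PLXNA3 2.52-fold (adjusted p = 3.59e-08). All 5 had Dox and DMSO libraries that did not overlap. Among the genes that fell were SEMA3D, with 8.63 normalized reads with Dox and 34.2 with DMSO, and PLXNC1, the receptor of SEMA7A, with 25.3 and 42.2.

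**Figure D4:**
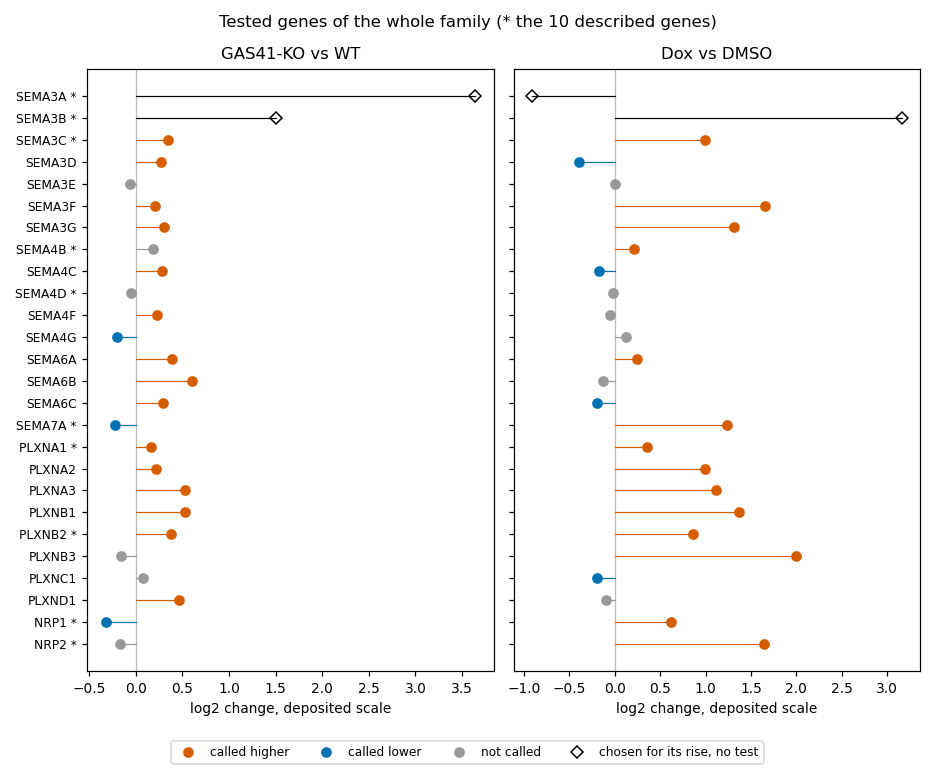
Log2 change on the deposited scale of the 26 tested family genes in GAS41-KO over WT and in Dox over DMSO, with the 10 described genes starred. Points are called higher, called lower or not called with limma, and open diamonds are SEMA3A and SEMA3B, without a test. Most family genes lie between 0 and 0.6 in GAS41-KO with SEMA3A at 3.64, and with Dox the rises reach 2.0 for PLXNB3 and 3.16 for SEMA3B.

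The partners of the family were counted in lists of coreceptors, intracellular effectors and ligand-cleaving proteases. In GAS41-KO against WT, 5 of 13 tested coreceptors and growth factor partners rose and 2 fell, about the background of 52.6% called in either direction. L1CAM, an adhesion molecule that joins NRP1 in the SEMA3A receptor, rose 2.65-fold (limma adjusted p = 4.03e-09), PTK7 rose 1.70-fold (adjusted p = 1.11e-07) and VEGFA, a neuropilin ligand, fell 1.38-fold (adjusted p = 1.81e-05). L1CAM was also 2.26-fold higher in mut rescue than in wt rescue (limma adjusted p = 3.05e-08), where 4 of the 13 rose and 2 fell, against 61.1% of all tested genes called. With Dox 5 of 12 rose and 3 fell, against 65.7%. PGF, a placental growth factor, had 1620 normalized reads with Dox and 112 with DMSO (14.4-fold, limma adjusted p = 1.55e-11), and MET, a receptor tyrosine kinase that associates with B-type plexins, fell 1.86-fold (adjusted p = 3.68e-06).

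Of 31 tested effectors, 13 rose and 6 fell in GAS41-KO against WT, where 26.0% of all tested genes were higher and 26.6% lower. DPYSL3, of the collapsin response mediator family that acts downstream of semaphorins on microtubules, had 172 normalized reads in GAS41-KO and 953 in WT (5.54-fold lower, limma adjusted p = 2.92e-12). TIAM1, an exchange factor for Rac, rose 2.88-fold (adjusted p = 1.03e-11), and SH3BP1, a GTPase-activating protein for Rac, fell 2.39-fold (adjusted p = 3.64e-07). Between the rescue lines 8 rose and 12 fell in mut rescue (background 29.8% and 31.3%), among them SH3BP1, 2.37-fold lower (limma adjusted p = 4.33e-07), and MICAL1, an actin-oxidizing enzyme that binds A-type plexins, 1.87-fold higher (adjusted p = 4.25e-07). DPYSL3 stayed low in all groups on the knockout background, with 267 normalized reads in mut rescue and 199 in wt rescue. With Dox 12 rose and 11 fell (background 32.3% and 33.4%), led by DPYSL4 (19.4-fold, limma adjusted p = 2.9e-12), RHOD (8.44-fold, adjusted p = 3.61e-11) and the cofilin kinase LIMK2 (2.79-fold, adjusted p = 1.95e-09).

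Of 7 proteases that process semaphorins or their receptors, 5 rose and 1 fell in GAS41-KO against WT, against a background of 26.0% higher and 26.6% lower. ADAM10, a sheddase, had 5548 normalized reads in GAS41-KO and 2918 in WT (1.90-fold, limma adjusted p = 0.00014), and MMP14, which releases SEMA4D from the membrane, rose 2.26-fold (adjusted p = 1.38e-08). In mut rescue ADAM10 was 2.99-fold above wt rescue (limma adjusted p = 4.65e-07) and MMP14 was 1.73-fold below it (adjusted p = 1.91e-06). The wt rescue libraries of ADAM10 were widely spread (1334 to 2642 normalized reads), below those of mut rescue (5063 to 5841). With Dox 4 rose and 1 fell, against 32.3% and 33.4% of all tested genes: MMP14 rose 4.22-fold (limma adjusted p = 4.65e-10) and ADAM10 fell 1.65-fold (adjusted p = 0.000312).

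Netrins, slits, repulsive guidance molecules and their receptors, 19 listed genes, served as the neighbouring guidance families. In GAS41-KO against WT, 8 of 12 tested rose and none fell (4 not called), against a background of 26.0% higher and 26.6% lower, with UNC5B, a netrin receptor, at 2.46-fold (limma adjusted p = 1.01e-09). Between the rescue lines, 5 of the 12 rose and 1 fell in mut rescue, against 29.8% and 31.3%. UNC5C, another netrin receptor, had 192 normalized reads in mut rescue, 2.05 in wt rescue, 93.0 in GAS41-KO and 0.315 in WT. It passed the read filter only through mut rescue and GAS41-KO, so its rise in both counts was set by that filter. DRAXIN also needed these groups to pass, with 24.7 normalized reads in mut rescue, 7.83 in wt rescue, 41.5 in GAS41-KO and 8.23 in WT. Both counts are therefore not an unselected match for the background. With Dox 7 of 11 rose and 2 fell, against 32.3% and 33.4%, with NTN1 at 12.9-fold (limma adjusted p = 7.97e-12), DRAXIN at 25.1-fold (adjusted p = 1.02e-10) and NTN4 at 4.56-fold (adjusted p = 4.59e-09).

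The genes most like SEMA3A and SEMA3B in the GAS41 experiment were sought by Pearson correlation of deposited log2 values over the 12 libraries, among 10570 genes with a mean of at least 100 normalized reads. For SEMA3A these were SLFN5 (r = 0.994), CNTNAP3 (0.9917), APOL2 (0.9911), AHNAK2 (0.989) and ACADVL (0.9889). SLFN5, for instance, had 896 normalized reads in mut rescue, 282 in wt rescue, 1106 in GAS41-KO and 244 in WT. For SEMA3B they were LAMB2 (r = 0.9969), NPTXR (0.9948), TLN2 (0.9936), IRF9 (0.9927) and OLFML2A (0.9926), and LAMB2, a laminin chain, had 2286 in mut rescue, 715 in wt rescue, 2315 in GAS41-KO and 883 in WT. Both lists follow the split of mut rescue and GAS41-KO from wt rescue and WT. The 12 libraries form 4 groups, so these values describe group levels more than variation among libraries, and no p-value is given.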

How the data were processed

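Per the labels' protocols, the GAS41 libraries were made from poly-A RNA and read on a BGISEQ-500, and the doxorubicin libraries were read on an Illumina HiSeq. The submitters' processing notes name TopHat2 2.1.0, Bowtie 1.0.1, HTSeq, Trimmomatic 0.36, DESeq2 and CASAVA 1.4, with no role or order; the annotation is not given in the sources used here. The deposited tables hold log2 values on a variance-stabilized scale that the authors made from reads over size factors, which was read from the values: the inverse gave whole reads to within 0.01 for 100% of values. The compression is strong near the bottom: 39.1 normalized reads (GAS41 table) or 52.6 (doxorubicin table) lie only 1 log2 over the lowest value. Because the values are not counts, limma 3.58.1 (R 4.3.3), with a prior variance that follows the mean, was fitted to the deposited log2 values, all 12 GAS41 libraries in 1 fit and the 6 doxorubicin libraries in another, over genes that reached 10 recovered reads in 3 or more libraries (14505 and 14195 genes), with Benjamini-Hochberg adjustment and a two-sided threshold of 0.05. All 10 members passed this filter in both tables. Intervals are at 95%. Symbols matched the RefSeq reference for 16613 and 18669 genes. No replicate pair agreed within counting noise (chi-square per gene of 1.35 or more). The procedure was checked on simulated data with the same spread for every gene and no outlying library. That check does not measure the share of false calls in these libraries.

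The members, the gene lists and the rules for naming genes were chosen with earlier results of these data known. All members are named; of other family genes up to 5 and of other lists up to 3 per comparison could be named, those called with groups that do not overlap, with at least 100 normalized reads in 1 group and the largest log2 change. SEMA3D and PLXNC1 are named beyond this rule, chosen after their values were seen. Alternatives were voom on recovered reads with deposited or TMM factors, the replicate number as a block, quantile normalization, the compared groups only, no filter on low reads, 1 prior variance, and leaving out each library. Taking wt rescue replicate 1 as the only library of its group was added after seeing the data. ChIP and input samples (26) were not analysed here. Plots were made in Python 3.11.15 with matplotlib 3.10.9.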

Additional observations from a re-analysis of the deposited data

How the results depend on the processing

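Of the results for single genes, 840 stayed the same under an alternative, 50 lost the call, 9 gained it, 21 moved and 10 changed sign. For tested results, the same means the same direction and side of the threshold. For SEMA3A and SEMA3B without a test, it means a shift under the larger SD of the compared groups, and moved means a larger shift. With voom, for example, the log2 change of SEMA3B with Dox was 4.4, against 3.16. All that changed sign were changes of at most 0.29 on the log2 scale: SEMA4D in mut rescue against wt rescue (0.03 without mut rescue replicate 1, from -0.09 upward in the other such fits, 0.04 with wt rescue replicate 1 alone in its group), NRP2 in the same comparison (0.01 without mut rescue replicate 1, 0.0 without wt rescue replicate 1, lowest -0.08), PLXNB2 in wt rescue against WT (-0.07 under quantile normalization), SEMA3C in wt rescue against WT (0.04 with wt rescue replicate 1 alone), and in mut rescue against WT PLXNA1 (0.01 without mut rescue replicate 1), SEMA4B (-0.10 without mut rescue replicate 2, -0.01 without WT replicate 3, highest 0.1) and SEMA7A (-0.02 without mut rescue replicate 2, highest 0.1). The cause was not tested. Called genes in mut rescue against GAS41-KO ran from 1283 to 2374 when 1 library was left out (2164 with all), called family genes from 8 to 16 (14) and called members from 1 to 4 (3). Called members in wt rescue against WT ran from 2 to 4 (4) in the same way. With wt rescue replicate 1 alone, wt rescue against WT had 2328 called genes, 2 called members and 7 called family genes, in a fit where that library is assumed to vary like the other groups. Deviations of same-numbered replicates correlated over 0.1 in 11 of 18 pairs in the GAS41 table (-0.39 to 0.48; all pairs of replicate 1, most of replicate 2 and none of replicate 3) and in 1 of 3 in the doxorubicin table (-0.39 to 0.15). Not every pair did and the labels do not say what a number marks, so the block was kept as an alternative. With the replicate number as a block, 6 members were called in GAS41-KO against WT and 4 in wt rescue against GAS41-KO, against 5 and 5 without it: the call was gained for SEMA4B, GAS41-KO vs WT (limma adjusted p = 0.0405) and lost for NRP1, wt rescue vs GAS41-KO (limma adjusted p = 0.0516). NRP1 and NRP2 rest on few reads in the GAS41 experiment, which limits them most.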
